A study of Mus musculus with 6 samples.

Results

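The mitochondrially encoded genes are those carried by the circular genome inside mitochondria. They were taken as every gene whose symbol starts with mt- in a table of mouse olfactory mucosa, which gave 24 of its 40273 genes: 2 ribosomal RNA (rRNA) genes, 12 protein genes and 10 transfer RNA (tRNA) genes. The rule used no measured value. The GENCODE vM21 annotation lists 37 genes on this genome, and the other 13, mt-Nd4l and 12 tRNA genes, were not analysed here.

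RNA-seq was made from the olfactory mucosa of 3 control mice (genotype wildtype) and 3 mice lacking eC (genotype delta eC), a 1005-bp element at chr7:102916999-102918004 whose coordinate build the design text does not name. All 6 were male mice of strain 129S6;C57BL/6J at postnatal day 30, and the design text counts separate animals. The labels name no Cre, transgene or treatment, and olfactory mucosa holds neurons, supporting cells, glands and other cells, so fewer cells of a type and less RNA per cell cannot be told apart. Total RNA was column-purified, depleted of ribosomal RNA and made into stranded libraries.

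In mammals the mitochondrial genome encodes the rRNAs and tRNAs of the organelle's own ribosomes and a small set of subunits of the respiratory chain and ATP synthase. Both of its strands are copied into long RNAs that are cut at the tRNAs into single transcripts. Most genes are read from the heavy-strand promoters, and mt-Nd6 and a few tRNAs are read the other way, from the light-strand promoter. All other subunits, and the enzymes that copy and translate this genome, come from nuclear genes. In the olfactory mucosa, the dendrites, cilia and axons of sensory neurons depend on ATP for odour signalling and firing.

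The libraries held 30342763 to 50906277 reads assigned to genes. Omp, which marks mature olfactory sensory neurons, lay between 125370 and 181804 normalized counts (reads divided by a library size factor), and Cyp2g1, a cytochrome P450 of supporting cells, lay between 113273 and 130154. The annotation places Olfr571, an olfactory receptor gene, over 538 bp of the element if its coordinates are GRCm38. Olfr571 had 39.5 to 45.1 normalized counts in the controls and no read in the 3 deletion libraries. Reads within the deleted bases alone were not analysed here. Counting the genes with any read split the libraries into 2 sets. Set A, with 26564 to 27879 such genes, was made up of deletion replicates 1 and 2 together with control replicate 1. Set B, with 36197 to 37456, was made up of deletion replicate 3 together with control replicates 2 and 3. No label names these sets, and each holds both genotypes.

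The sequences that carry what follows are of 2 kinds. The first shows how closely some mitochondrial genes match annotated nuclear genes. The first 90 bases of mt-Co2, which encodes cytochrome c oxidase subunit II, at chrM:7013-7102 on the plus strand, are set against those of Gm28661, an annotated gene at chr1:24615476-24615565 on the minus strand. Both are from GENCODE vM21 transcripts on GRCm38, 5′ to 3′.
mt-Co2: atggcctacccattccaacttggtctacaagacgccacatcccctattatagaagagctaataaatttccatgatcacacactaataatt
Gm28661: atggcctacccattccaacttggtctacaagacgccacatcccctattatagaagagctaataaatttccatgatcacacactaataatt
The 2 lines are identical. The next pair holds the 1 mismatch found in the aligned bases of 7 gene pairs, in capitals. mt-Co1 is shown at chrM:6390-6423 (plus strand) and Gm29216 at chr1:24616155-24616188 (minus strand).
mt-Co1: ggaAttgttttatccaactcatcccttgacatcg
Gm29216: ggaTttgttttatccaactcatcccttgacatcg

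The second kind is the tRNA genes with the most reads or the widest spread between libraries, with the anticodon in capitals. mt-Tq (chrM:3772-3842), mt-Te (chrM:14071-14139), mt-Ty (chrM:5260-5326) and mt-Tp (chrM:15356-15422) lie on the minus strand of the reference and belong to the light-strand genes. mt-Tw (chrM:4950-5016) lies on the plus strand. They carry glutamine, glutamate, tyrosine, proline and tryptophan in that order.
mt-Tq: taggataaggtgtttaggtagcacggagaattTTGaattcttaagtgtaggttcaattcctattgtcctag
mt-Te: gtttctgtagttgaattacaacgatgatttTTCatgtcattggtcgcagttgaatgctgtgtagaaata
mt-Ty: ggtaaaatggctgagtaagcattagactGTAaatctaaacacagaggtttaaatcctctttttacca
mt-Tp: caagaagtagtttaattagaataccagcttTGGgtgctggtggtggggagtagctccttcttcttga
mt-Tw: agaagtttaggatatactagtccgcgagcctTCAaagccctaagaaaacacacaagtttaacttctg

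The share of counts taken by mitochondrial genes overlapped between the genotypes. Their part of the column sum was 4.26%, 4.06% and 3.95% in the controls and 3.80%, 4.20% and 5.29% in the deletion mice. The lowest and the highest library were both deletion libraries, and the groups overlapped. The means were 4.09% ± 0.161 (SD, n = 3) and 4.43% ± 0.773 (SD, n = 3). They differ by 0.344 percentage points, which is smaller than the spread among the deletion libraries. Without deletion replicate 3, deletion minus control was -0.0862 points, and without deletion replicate 1 it was 0.660 points. Within set A it was -0.262 points, and within set B, with its single deletion library, 1.29 points.

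The 2 rRNA genes, which form the core of the small and large mitochondrial ribosomal subunits, made up most of this share even after ribosomal RNA depletion. They took 2.65% to 3.91% of the column sum. The depletion probes are not named in the sources used here, so how far they remove mitochondrial rRNA is unknown. The 12 protein genes took 1.09%, 1.13% and 1.30% in the controls and 0.963%, 0.937% and 1.38% in the deletion libraries, and the groups overlapped. Their means were 1.18% ± 0.108 and 1.09% ± 0.248 (SD, n = 3). The protein-gene share was higher in every library of set B than in any of set A. The 10 tRNA genes took 0.000533% to 0.00243%.

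**Figure D1:**
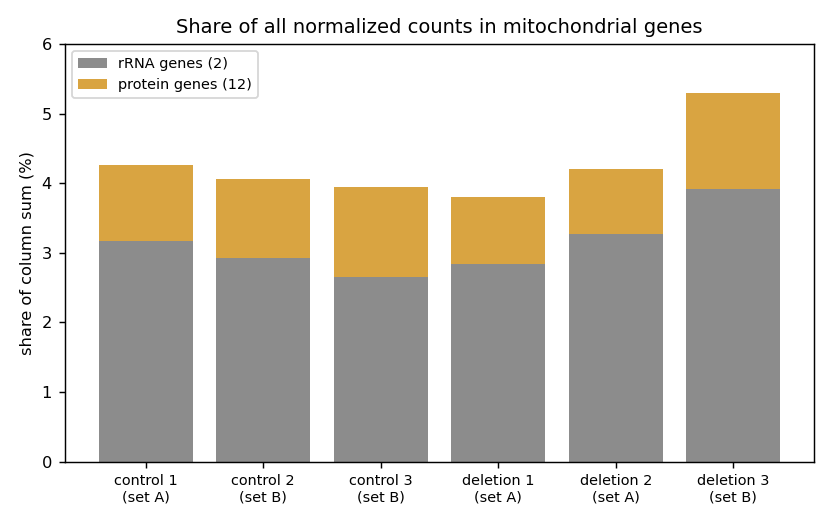
Share of each library's column sum, in percent, taken by mitochondrial rRNA and protein genes in the 3 control and 3 deletion libraries, with the library set marked. The tRNA genes, at most 0.00243%, are too small to see, and deletion replicate 3 stands highest at 5.29% in all.

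mt-Rnr2, the 16S rRNA of the large subunit (chrM:1094-2675), was the most abundant member. It had control values of 1072284, 948446 and 880144 normalized counts and deletion values of 943497, 1120351 and 1303682. Deletion replicate 3 was the highest library, and deletion replicate 1 lay between the controls. The log2 fold change, deletion over control, was 0.21 ± 0.18 (SE), with a 95% interval of -0.21 to 0.62.

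mt-Rnr1, the 12S rRNA of the small subunit (chrM:70-1024), had control values of 120714, 100225 and 77130 normalized counts and deletion values of 101291, 112058 and 129729. The lowest library was a control and the highest a deletion library, with the others interleaved. The log2 fold change was 0.22 ± 0.17 (SE), with a 95% interval of -0.17 to 0.61. Per kilobase of gene length, mt-Rnr2 stood 5.36 to 6.89 times above mt-Rnr1 in the 6 libraries.

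Among protein genes, mt-Co1 led. It encodes subunit I of cytochrome c oxidase (complex IV), the subunit that holds the site where oxygen is reduced, at chrM:5328-6872. It had control values of 299165, 292432 and 346112 normalized counts and deletion values of 257568, 256395 and 350593. Deletion replicates 1 and 2 lay below every control, and deletion replicate 3 lay above every control. The log2 fold change was -0.13 ± 0.16 (SE), with a 95% interval of -0.49 to 0.23. mt-Co1 made up 69.4% to 73.7% of the protein-gene sum.

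mt-Cytb, cytochrome b, the one complex III subunit of this genome, had control values of 43018, 44176 and 45195 normalized counts and deletion values of 35605, 37177 and 58350. The same order was seen as for mt-Co1, with 2 deletion libraries below the controls and 1 above. The log2 fold change was -0.05 ± 0.17 (SE). mt-Cytb made up 9.63% to 11.6% of the protein-gene sum.

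The members of complex I, the NADH dehydrogenase that feeds electrons into the chain, made up 16.6% to 19.0% of the protein-gene sum. mt-Nd1, a subunit of its membrane arm near the quinone site, had control values of 37975, 39255 and 43877 normalized counts and deletion values of 33241, 32565 and 52697. The deletion libraries again lay on both sides of the controls. Its log2 fold change was -0.07 ± 0.18 (SE). mt-Nd2, mt-Nd4 and mt-Nd5, the subunits related to proton antiporters, had control means of 8391 ± 298, 11081 ± 860 and 11014 ± 230 normalized counts (SD, n = 3). Their deletion means were 9083 ± 2896, 11083 ± 2821 and 11010 ± 2454 (SD, n = 3). The log2 fold changes of these 3 genes were 0.07 ± 0.19, -0.03 ± 0.16 and -0.02 ± 0.14 (SE). In each of the 3, deletion replicate 3 was the highest library and deletion replicates 1 and 2 were the lowest.

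mt-Nd6, the complex I subunit encoded on the light strand (chrM:13552-14070), spread more widely. It had control values of 1192, 1700 and 2503 normalized counts and deletion values of 952, 1004 and 2532. The 3 libraries of set B were the 3 highest. The log2 fold change between genotypes was -0.36 ± 0.39 (SE), with a 95% interval of -1.26 to 0.55. mt-Nd6 overlaps mt-Nd5 by 14 bp on the opposite strand. Whether reads were counted by strand is not given in the sources used here, and otherwise those of the opposite RNA cannot be told apart from those of the gene.

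Levels per kilobase fell into 2 well-separated ranges along the genome. The 7 protein genes named above had means of 3174 (mt-Nd6) to 194419 (mt-Co1) normalized counts per kilobase. The other 5, mt-Co2, mt-Atp8, mt-Atp6, mt-Co3 and mt-Nd3, had 18.4 to 135. The lowest of the 6 abundant heavy-strand protein genes, mt-Nd5, was 44.6-fold above the highest of these 5. Yet all 5 lie next to each other, from mt-Co2 at position 7013 to the end of mt-Nd3 at position 9806, between mt-Co1 and mt-Nd4.

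mt-Co2 encodes the subunit that takes electrons from cytochrome c. It had control values of 45.8, 40.2 and 29.1 normalized counts and deletion values of 37.3, 62.9 and 36.2, and the groups overlapped. mt-Co3, the third core subunit of complex IV, had 92.4, 82.7 and 101 in the controls and 91.9, 152 and 116 in the deletion mice. Its log2 fold change, 0.35 ± 0.20 (SE), had the smallest p of any member (limma, unadjusted p = 0.123, adjusted p = 0.982). mt-Atp6 and mt-Atp8, subunits of the membrane part of ATP synthase (complex V), lay at 8.13 to 16.9 and 2.41 to 8.04 normalized counts. mt-Nd3, a small complex I subunit, lay at 4.59 to 16.6. These 3 genes rest on few reads, with 2 to 18 in any library.

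**Figure D2:**
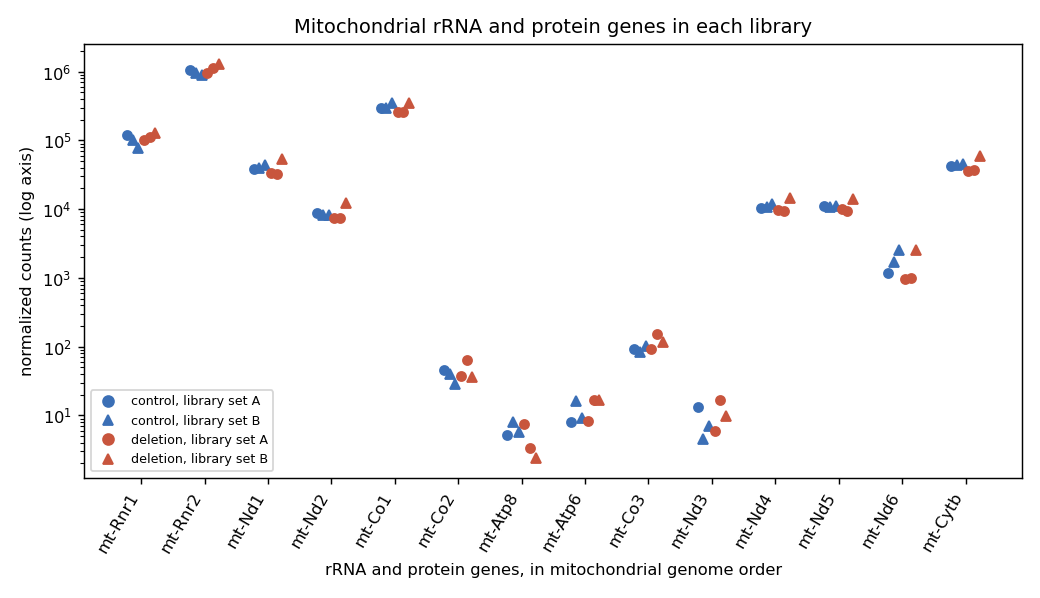
Normalized counts of the 2 rRNA and 12 protein genes in each of the 6 libraries, on a log axis, in the order of the genes on the mitochondrial genome, with genotype by colour and library set by shape. The run from mt-Co2 to mt-Nd3 lies far below its neighbours in all 6 libraries, and deletion replicate 3 is highest for each of the 9 genes over 1000 normalized counts.

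The low run coincided with sequence that is annotated a second time in the nucleus. Every 50-base window of mt-Co2 was found in another annotated gene. The share of such windows was 99.9% for mt-Co3, 99.5% for mt-Atp6 and 98.0% for mt-Nd3. It was 62.2% for mt-Nd4, 51.1% for mt-Co1, 8.2% for mt-Nd2 and 7.6% for mt-Nd5. It was 1.0% for mt-Rnr2 and 0.0% for mt-Rnr1, mt-Nd1, mt-Nd6 and mt-Cytb. mt-Atp8 also had 0.0%: its last 43 bp overlap mt-Atp6 and are matched by an annotated copy, but they are shorter than the window. Only annotated transcripts were searched.

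The other copy is a chain of 7 annotated genes on the minus strand of chr1:24611535-24616197 (GRCm38). In order they are Gm29216, Gm28661, Gm10925, Gm28437, Gm28438, Gm10222 and Gm28439, matching mt-Co1, mt-Co2, mt-Atp6, mt-Co3, mt-Nd3, mt-Nd4l and mt-Nd4. Of the 7 pairs, 6 were identical over the aligned length, and Gm29216 had 1 mismatch in 483 bases, marked by the capitals above. The alignments were local and can leave out differing ends. They held 483 of the 492 bases of Gm29216 and 342 of the 345 bases of Gm28438. Gm29216 covers 31.3% of mt-Co1 and Gm28439 covers 63.6% of mt-Nd4. From end to end the chain spans 4663 bp, and the matched parts of the mitochondrial genome span 4653 bp in the same gene order. Of the 6 start-to-start distances, 5 are equal. Only the gene pairs were aligned, and the bases between the genes were not compared. The stretch between Gm28661 and Gm10925 is 233 bases long, as long as the mitochondrial stretch between the matched parts of mt-Co2 and mt-Atp6, and the latter holds most of mt-Atp8.

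Of the copies, 3 were read at levels close to those of the mitochondrial genes they match. Gm28661 averaged 35.6 normalized counts over the 6 libraries, against 41.9 for mt-Co2. Gm10925 and mt-Atp6 averaged 10.1 and 12.5, and Gm28438 and mt-Nd3 averaged 10.1 and 9.51. Gm28437 averaged 22.3 against 106 for mt-Co3, Gm29216 ranged from 19.8 to 43.1, Gm28439 averaged 7.81 and Gm10222 averaged 0.572. The copies summed to 96.5 to 138 normalized counts per library. How reads that match several places were counted is not given in the sources used here. The values of mt-Co2, mt-Atp6, mt-Co3 and mt-Nd3 are therefore uncertain, as are those of mt-Co1 and mt-Nd4 in part, and the part of the shared sequence in the low values was not tested.

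**Figure D3:**
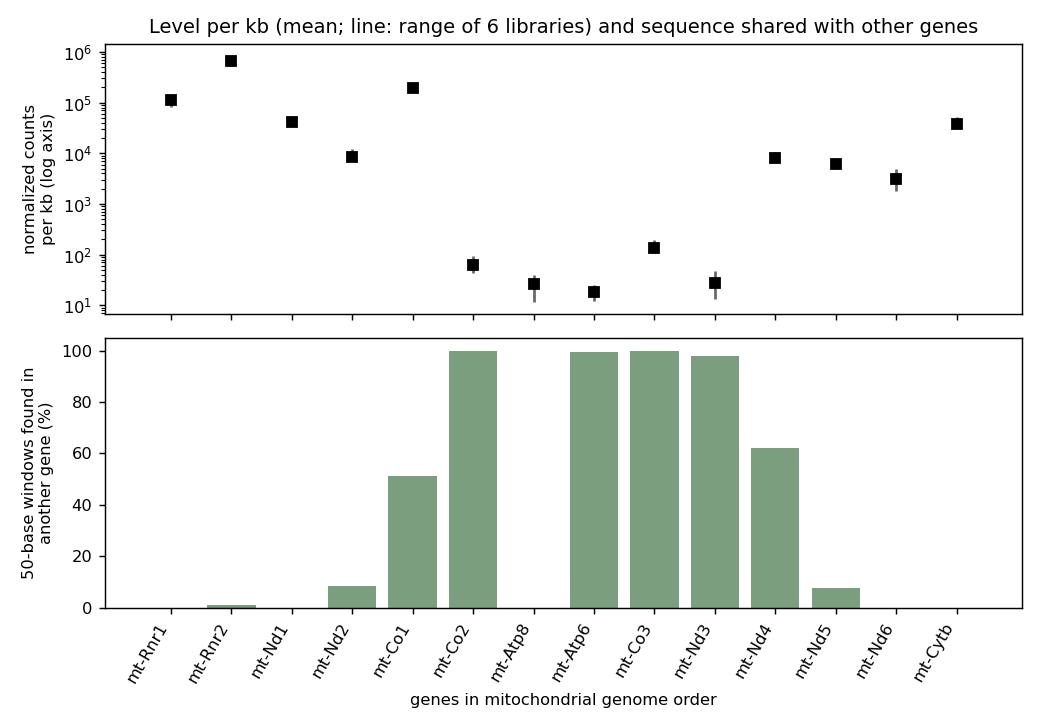
Mean normalized counts per kilobase (log axis) of the rRNA and protein genes over the 6 libraries, and the share of each gene's 50-base windows, in percent, that occur in another annotated gene, in genome order. The genes with 98.0% or more shared windows, and mt-Atp8 with 0.0% among them, have the lowest levels, at 18.4 to 135.

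Of the tRNA genes, mt-Tq had the highest mean over the 6 libraries, though in set A mt-Tw and mt-Tp lay above it. tRNAs are short for a column purification and standard libraries, so these values do not give the level of mature tRNA. mt-Tq had control values of 25.9, 261 and 352 normalized counts and deletion values of 23.9, 21.0 and 402. The 3 libraries of set A lay at 21.0 to 25.9, and those of set B lay at 261 to 402. The genotype log2 fold change was -1.16 ± 1.28 (SE), with a 95% interval of -4.11 to 1.78.

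mt-Te had control values of 2.96, 26.4 and 38.4 normalized counts and deletion values of 2.24, 1.10 and 39.8. The split by set was again complete, and the log2 fold change between genotypes was -1.31 ± 1.25 (SE). mt-Tp had 68.7, 153 and 214 in the controls and 58.3, 68.4 and 221 in the deletion mice, with the same split and a log2 fold change of -0.45 ± 0.56 (SE). mt-Tw, the most abundant heavy-strand tRNA gene, varied little, with 98.3, 109 and 107 in the controls and 84.4, 80.6 and 134 in the deletion mice. Its log2 fold change was -0.11 ± 0.21 (SE). The other 6 tRNA genes (mt-Ti, mt-Tm, mt-Ta, mt-Ty, mt-Ts1 and mt-Tt) lay between 0 and 42.2 normalized counts in every library.

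No mitochondrial gene passed the test of deletion against control. The test (limma on log2 of the normalized counts plus 1, Benjamini-Hochberg adjustment over all tested genes) called 15 of 20368 genes, 0.0736%, at an adjusted p under 0.05, of which 6 (0.0295%) were higher and 9 (0.0442%) lower in the deletion. It called 0 of the 17 members that passed the filter on low values, 10 or more in at least 3 libraries. The adjusted p-values of the members ran from 0.982 to 0.993. At an unadjusted p under 0.05 the count was 0 members, against 2.70% of tested genes. edgeR, limma-voom and DESeq2 on recovered reads, which called 15 (0.0736%), 14 (0.0687%) and, without the filter on low values, 40 (0.0993%) genes in all, called 0 members and found 0 at an unadjusted p under 0.05, which 2.68%, 2.69% and 0.981% of genes met. In the authors' deposited table, 0 of the 23 members with an adjusted p-value were under 0.05, and their smallest p-value was 0.0840, while 33 of 30107 genes in all were under 0.05.

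The 17 members had 6 fold changes above 0 and 11 below (47.5% of tested genes were below), with a median log2 fold change of -0.05 against 0.01 for all tested genes. No member had groups that did not overlap, which 7.68% of tested genes had. The 7 members under the filter were mt-Atp8, mt-Nd3, mt-Ti, mt-Tm, mt-Ta, mt-Ts1 and mt-Tt, and they are given above as values only. The precision differs by member: intervals of the abundant rRNA and heavy-strand protein genes reached at most 0.62 from 0 on the log2 scale, while that of mt-Tq reached down to -4.11. These limits do not show that the genes were equal in both genotypes.

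**Figure D4:**
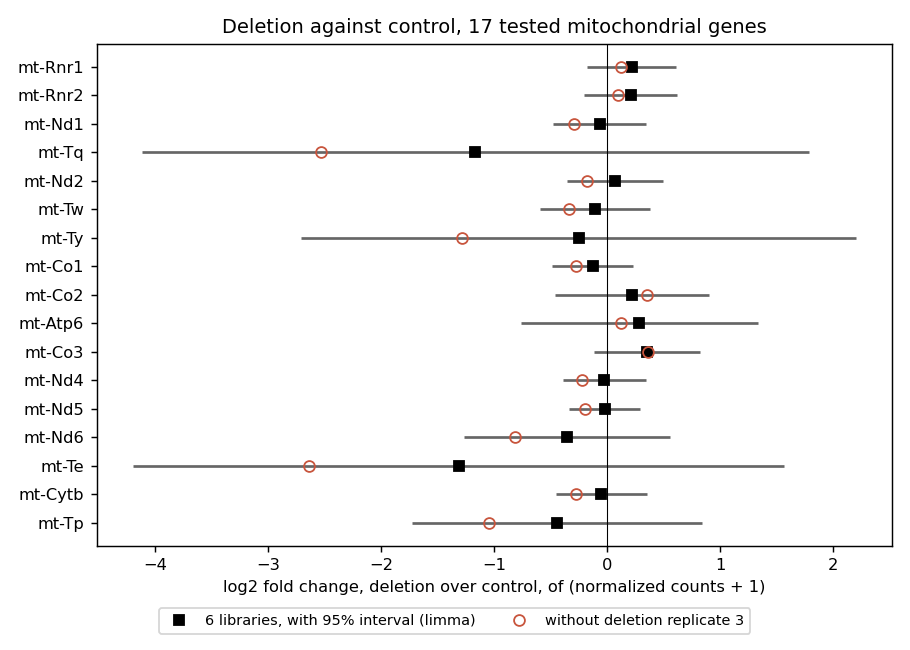
Log2 fold change, deletion over control, of the 17 tested mitochondrial genes in genome order, on the scale of log2 normalized counts plus 1. Squares give the 6-library value with its 95% interval, all of which include 0, and open circles give the value without deletion replicate 3, which lies lower for most genes.

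Single libraries moved the genotype comparison of these genes. Deletion replicate 3 was the highest library for 15 of the 17 tested members, against 13.8% of all tested genes, and for 20 of all 24 members. Of the 11 summed marker lists, the following also stood at an end of their range there. Those of mature and immature neurons, supporting cells, basal cells, ensheathing glia, neutrophils and bone did not. Skeletal muscle markers summed to 332 normalized counts against 168 to 301 in the others, with 4 of the 10 genes highest in that library. Respiratory ciliated cell markers were highest, at 140355 against 122173 to 138737, with 2 of the 8 genes highest in that library. Bowman's gland markers were lowest, at 108477 against 130046 to 164784, and erythroid markers were lowest, at 1254 against 1422 to 2853. How many genes of either list were lowest in that library was not counted. Between genotypes, 5 of the 7 Bowman's gland genes had a fold change above 0, though their sum averaged 125460 in deletion mice against 147652 in controls. Of the 7 erythroid genes, 0 were above 0. The part of each cell type in these values was not tested. Deletion replicates 1 and 2 lay below every control in 11 of the 17 tested members, against 12.2% of all tested genes. Without deletion replicate 3, limma called 24 genes, 0.118%, and again 0 members. At an unadjusted p under 0.05, 9 members were then lower in the deletion (mt-Nd1, mt-Tq, mt-Nd2, mt-Nd4, mt-Nd5, mt-Nd6, mt-Te, mt-Cytb and mt-Tp), against 4.44% of tested genes. Their smallest adjusted p was 0.560. The log2 fold change of mt-Nd1 moved to -0.29, that of mt-Cytb to -0.28 and that of mt-Nd6 to -0.81. Both deletion libraries of that fit belong to set A and 2 of its 3 controls to set B. Genotype and set can therefore hardly be told apart there. Of the 9, 4 are light-strand genes, which split by set, and the heavy-strand genes mt-Nd1, mt-Nd4 and mt-Cytb split by set too. Other libraries weighed as much: without control replicate 1 the log2 fold changes of mt-Tq and mt-Te were both -2.33. Without deletion replicate 1 or 2, 5 and 7 members changed direction, against 1 (mt-Nd2) without deletion replicate 3.

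With the library set added to the fit, the direction of many members turned. mt-Nd1 then had a log2 fold change of 0.069, mt-Cytb 0.072, mt-Nd4 0.092, mt-Nd5 0.068, mt-Nd6 0.0052, mt-Tp 0.084 and mt-Tq 0.10. 36 genes, 0.177%, were called in that fit, with 0 members among them, and 1 member (mt-Ty) had an unadjusted p under 0.05, against 3.66% of tested genes. Because set A holds 2 deletion libraries and 1 control and set B the reverse, genotype and set overlap in part.

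Within the mitochondrial sum, the largest parts were those of mt-Rnr2 and mt-Co1. mt-Rnr2 took 66.8%, 65.1% and 61.7% of the mitochondrial sum in the controls and 67.4%, 70.6% and 67.2% in the deletion mice. mt-Co1 took 18.6%, 20.1% and 24.2% in the controls and 18.4%, 16.2% and 18.1% in the deletion mice. For both shares the groups did not overlap, though their nearest libraries differed by less than 1 percentage point. These were 2 of the 24 member shares, and 7.68% of tested genes had levels that did not overlap, so the count is near the background. The mean share of mt-Rnr2 was 64.5% ± 2.63 in controls and 68.4% ± 1.92 in deletion mice (SD, n = 3), and that of mt-Co1 was 21.0% ± 2.91 and 17.6% ± 1.21. The shares are parts of 1 sum, so a higher one lowers the other, and they were picked from the 24 members after their values were seen, so no test is given. The ratio of rRNA to protein-gene counts was 2.90, 2.57 and 2.04 in the controls and 2.95, 3.49 and 2.84 in the deletion mice, where the groups overlapped. Of the protein-gene sum alone, mt-Co1 took 72.7%, 71.8% and 73.7% in the controls and 72.7%, 72.5% and 69.4% in the deletion mice. Those groups overlapped too.

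The widest differences among mitochondrial genes ran between the library sets, along the strand of the gene. All 7 light-strand members (mt-Nd6, mt-Tq, mt-Ta, mt-Ty, mt-Ts1, mt-Te and mt-Tp) were higher in every library of set B than in any of set A. Of the 17 heavy-strand members, 4 were (mt-Nd1, mt-Tw, mt-Nd4 and mt-Cytb). Of the members that passed the filter on low values, all 5 light-strand and 4 of 12 heavy-strand genes were. Among all tested genes 15.8% were higher in every library of set B. mt-Ta and mt-Ts1 were not tested, and mt-Te and mt-Ty passed only through set B. Set B was defined by more genes with a read, so that share is not a like background for low genes. mt-Nd6, mt-Tq and mt-Tp had 10 or more normalized counts in all 6 libraries. By reads, mt-Ts1 had 1 in both deletion replicate 1 (set A) and control replicate 2 (set B). mt-Ta had 9 reads in control replicate 1 (set A) and 7 in control replicate 2 (set B). The splits of mt-Ts1 and mt-Ta therefore rest on few reads and on the scaling by library size factor. No tested member was lower in every library of set B, as 19.9% of tested genes were. mt-Ta, mt-Ty and mt-Ts1 are named here after their values were seen, and the sets were defined from these libraries, so these values carry no test.

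The median log2 difference, set B over set A, was 1.56 over all 7 light-strand members and 0.27 over all 17 heavy-strand members. Several light-strand genes rest on few reads in set A, and mt-Te and mt-Ty passed the filter only through set B, so the size of the difference depends on the pseudocount. Over the 5 light-strand genes that passed, the median was 2.75 with a pseudocount of 1 and 1.52 with 10. Set means of mt-Tq were 23.6 and 338 normalized counts, a 14.3-fold difference. mt-Te differed 16.6-fold from a set A mean of only 2.10, mt-Ty 8.53-fold, mt-Tp 3.01-fold and mt-Nd6 2.14-fold. The ratio of mt-Nd6 to its neighbour mt-Nd5, per kilobase, was 38.4%, 33.9% and 37.8% in set A and 55.1%, 78.0% and 64.4% in set B. Both genotypes followed this order: the set A control lay at 25.9 for mt-Tq beside deletion libraries at 23.9 and 21.0, and the set B deletion library lay at 402 beside controls at 261 and 352.

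**Figure D5:**
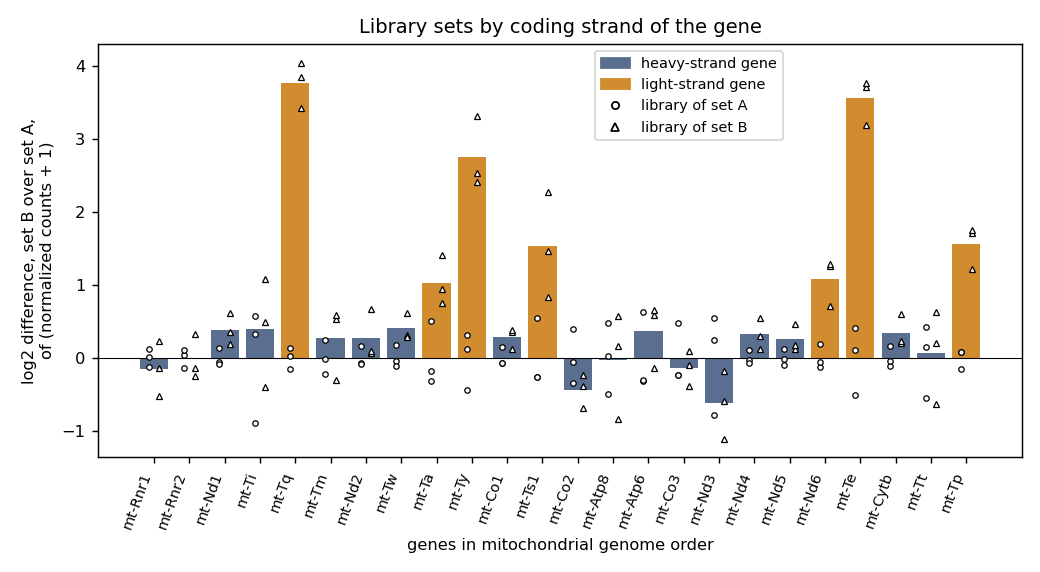
Log2 difference of the means, set B over set A, of normalized counts plus 1 for the 24 mitochondrial genes in genome order, as bars coloured by the strand of the gene, with each library's own difference from the set A mean as a point. The 7 light-strand genes lie at 1.03 to 3.77 and the 17 heavy-strand genes at -0.63 to 0.40.

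Other values moved with the sets. Processed pseudogenes took 0.0461% to 0.0577% of the column sum in set A and 0.0630% to 0.0728% in set B. Long intergenic noncoding RNA genes took 1.21% to 1.32% and 1.13% to 1.16%. Genes the annotation types as TEC took 0.159% to 0.165% and 0.171% to 0.183%. The share of antisense genes was not separated by set, at 0.307% to 0.379%. The sum of 11 small noncoding RNA genes was 470630 to 518780 normalized counts in set A and 320246 to 443868 in set B. That of 8 nuclear-retained RNA genes was 268341 to 312816 and 234690 to 250370. That of 22 mitochondrial aminoacyl-tRNA synthetase genes was 23839 to 24431 and 22513 to 23628. The summed level of 10 mature olfactory neuron markers was 388672 to 452494 normalized counts in set A and 474030 to 522781 in set B. That of 7 basal cell markers was 5498 to 7043 and 4454 to 5048. The sum of 8 supporting cell markers was 253559 to 281167 in set A and 243906 to 248439 in set B. That of 10 skeletal muscle markers was 168 to 232 and 299 to 332. The rest of the 11 marker lists were not separated by set. Among single tested genes, 15.8% were higher and 19.9% lower in every library of set B. The part of each in the strand difference was not tested.

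Nuclear genes for mitochondrial proteins were compared in the same fit. Over 12 lists, 271 of 272 measured genes were tested, and 0 were called by limma in either direction. At an unadjusted p under 0.05 there were 8, or 2.95%, close to the 2.70% of all tested genes. Of the 82 tested nuclear genes of oxidative phosphorylation, 0 were called, and no test of the list as a whole was made. Against 52.5% of all tested genes, 21 of these 82 (25.6%) had a fold change above 0, and their median log2 fold change was -0.03. Their share of the column sum was 0.957% ± 0.0259 in controls and 0.926% ± 0.0203 in deletion mice (SD, n = 3), with overlapping groups, and in the opposite order to the mitochondrial share in deletion replicate 3. That library was the lowest of the 6 for nuclear subunits, at 0.908%, and the highest for the mitochondrial protein genes, at 1.38%.

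By complex, the medians of the log2 fold change were -0.04 for 36 complex I genes, -0.06 for 4 complex II genes and -0.03 for 9 complex III genes. They were -0.03 for 15 complex IV genes and -0.02 for 18 ATP synthase genes. Complex II, succinate dehydrogenase, has nuclear subunits only. Its members Sdhd and Sdhb, the membrane anchor and the iron-sulfur subunit, had log2 fold changes of -0.08 ± 0.07 and -0.07 ± 0.06 (SE). In complex III, Uqcrc2, a core protein, had -0.08 ± 0.07. In complex V, Atp5c1, the central stalk gamma subunit, had -0.10 ± 0.07. In complex IV, Cox8b, a muscle-type subunit, had 1693, 695 and 727 normalized counts in controls and 2382, 1781 and 768 in deletion mice. The 3 libraries of set A were its highest.

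The genes with the smallest p in complex I were Ndufc2 and Ndufa13, both accessory subunits. Ndufc2 had 2725 ± 272 normalized counts in controls and 2291 ± 94.0 in deletion mice (SD, n = 3), a log2 fold change of -0.25 ± 0.08 (limma, unadjusted p = 0.0198, adjusted p = 0.982). Mrpl48, a protein of the large mitochondrial ribosomal subunit, had 2408, 2828 and 2703 in controls and 1870, 2020 and 2251 in deletion mice, and the groups did not overlap. Its log2 fold change was -0.37 ± 0.09 (limma, unadjusted p = 0.00389, adjusted p = 0.982), which did not pass the test. Both genes lie on chromosome 7, Mrpl48 2309 kb and Ndufc2 5509 kb from the element if its coordinates are GRCm38. Of the 271 tested genes 21, or 7.75%, lie on that chromosome. So do 2 of the 8 with an unadjusted p under 0.05 (limma), and the rest of the 8 lie on other chromosomes. Neither Ndufc2 nor Mrpl48 passed the test, and a link to their position was not tested.

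No gene of the mitochondrial ribosome passed the test: 47 large-subunit genes had a median of -0.03 and 33 small-subunit genes one of -0.02. Their summed share of the column sum was 0.226%, 0.226% and 0.238% in controls and 0.218%, 0.221% and 0.221% in deletion mice, and the groups did not overlap, as for 7.68% of tested genes. Mrpl27, of the large subunit, had a log2 fold change of -0.20 ± 0.07, and Mrps2, of the small subunit, had 0.19 ± 0.08 (SE). Genes that replicate and transcribe mitochondrial DNA numbered 21 with a median of -0.00. Tfb1m, which methylates the 12S rRNA, had the smallest p there, with a log2 fold change of -0.21 ± 0.11 (SE). The 32 genes of mitochondrial RNA processing and stability had a median of 0.01, and the 22 aminoacyl-tRNA synthetases had one of -0.04. Ears2, which charges mitochondrial glutamate tRNA, had 0.21 ± 0.10 (SE). The 13 genes of the mitochondrial stress response had a median of 0.11, and 0 were called. Of these 13, 11 were above 0, against 52.5% of all tested genes and 36.9% over the 12 nuclear lists. No test of the list as a whole was made. Chac1, a glutathione-degrading enzyme of that response, had 149, 104 and 95.4 normalized counts in controls and 154, 164 and 148 in deletion mice (limma, unadjusted p = 0.0407, adjusted p = 0.982).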

How the data were processed

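Olfactory mucosa RNA from 3 control and 3 deletion mice was analysed. The submitters' processing notes name the build GRCm38.p6, the aligner STAR 2.6.0 and DESeq2. How reads were assigned to genes, and whether by strand, is not given in the sources used here. The authors' deposited table holds a signal per gene, read here as counts divided by a library size factor, and their own log2 fold change, test score (the DESeq2 statistic) and p-value columns. All values (100%) came out as whole reads within 0.001, and no gene has fewer than 2 reads in all. Read totals per library were 30342763 to 50906277, so counting error is small except for genes with few reads.

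The planned test for normalized values, limma 3.58.1 (R 4.3.3) with a mean-variance trend, was fitted on log2(value + 1) over genes with 10 or more in at least 3 libraries, with the Benjamini-Hochberg threshold at 0.05; this scale understates changes of low genes. edgeR 4.0.16 called 15 genes on the recovered reads; limma-voom and DESeq2 1.42.0 were further alternatives, with other scalings, filters, pseudocounts, left-out libraries, the replicate block and the library set. Fits without 1 library kept the genes that passed in all 6. The steps were tested on simulated data.

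Windows of 50 bases were compared among GENCODE vM21 transcripts, and levels per kilobase used its gene lengths. No 2 libraries of a group were copies of each other. The members and gene lists were chosen with earlier results of these data known. Named were all rRNA and protein genes, the 4 tRNA genes with the highest mean, the 2 tested ones with the largest fold change, the chromosome 1 copies, Omp, and, of nuclear lists, called genes or else up to 2 with the smallest p; any other gene was named with its values in view.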

Additional observations from a re-analysis of the deposited data

How the results depend on the processing

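No mitochondrial gene was called under any of the 15 alternatives run. Over all genes, the count of 15 called genes became 40 with DESeq2 on 40267 genes without the filter (limma without the filter called 18) and 36 in the fit that includes library set. It ran from 6 to 24 when 1 library was left out: 6 without control replicate 2 or deletion replicate 2, 9 without control replicate 1 and 24 without deletion replicate 3. The labels give replicate numbers 1 to 3 in both genotypes. With the replicate block 46 genes (0.226%) were called and 0 members, with mt-Nd6 alone at an unadjusted p under 0.05, against 10.9% of tested genes. The deviations of same-numbered libraries correlated at 0.65, -0.34 and 0.66. Control replicates 1 and 3 correlated best with their own number, and control replicate 2 with deletion replicate 3. All correlations were positive within a library set and negative between the sets, so they cannot show whether the numbers pair the animals.

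The difference in the mitochondrial share moved from 0.344 to 1.29 points within set B, where the deletion has 1 library. Its direction turned in other settings. It was -0.262 points within set A, where the control has 1 library. Without deletion replicate 3 it was -0.0862 points, and without the 2 rRNA genes -0.0794 points. The mean mt-Co1 share, 19.3% of the mitochondrial sum, was 72.1% when the rRNA genes were left out, by construction. The light-strand set difference over the 5 genes that passed the filter was 1.52 in place of 2.75 with a pseudocount of 10, chosen after the data were seen, which shrinks low genes.

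Directions turned only for genes whose log2 fold changes over the 6 libraries were smaller than their SE, though not for all such genes. In the fit that includes library set they were 0.069 for mt-Nd1, 0.10 for mt-Tq, 0.029 for mt-Tw, 0.75 for mt-Ty, 0.092 for mt-Nd4, 0.068 for mt-Nd5, 0.0052 for mt-Nd6, 0.072 for mt-Cytb and 0.084 for mt-Tp. mt-Ty was 0.048 with edgeR and 0.056 with DESeq2, and mt-Nd4 was 0.00015 with DESeq2. Leaving out 1 library gave ranges of -0.29 to 0.055 for mt-Nd1, -0.18 to 0.20 for mt-Nd2, -0.34 to 0.023 for mt-Tw and -1.28 to 0.31 for mt-Ty. The ranges were -0.035 to 0.36 for mt-Co2, -0.23 to 0.086 for mt-Nd4, -0.20 to 0.086 for mt-Nd5 and -0.28 to 0.078 for mt-Cytb. The causes were not tested. Low depth limits mt-Atp8, mt-Atp6, mt-Nd3 and most tRNA genes.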
